A study of Mus musculus with 12 samples.

Results

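Pre-plasmablasts lacking Mzb1 were compared with wild-type pre-plasmablasts, using the 4 libraries whose titles name this cell stage out of the 12 in the series. Both groups came from spleens of C57BL/6 mice and held 2 libraries each: the ko group had the genotype Mzb1-/- Prdm1+/gfp, and the wt group Mzb1+/+ Prdm1+/gfp. All animals of the series therefore carried 1 gfp allele of Prdm1, the gene of the transcription factor Blimp1, so no group had 2 intact copies. Splenic B cells were purified with B220 beads, stimulated for 4 days with lipopolysaccharide (LPS) at 25 µg/ml, and sorted. Pre-plasmablasts (PrePB) were CD138-negative cells that expressed the Blimp1 reporter. Activated B cells (ActB, negative for both) and plasmablasts (PB, positive for both), again 2 ko and 2 wt libraries each, made up the other 8 libraries. Polyadenylated RNA was sequenced, and values are FPKM, fragment numbers divided by the length of the transcript and by the size of the library.

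Mzb1 is a small protein of the endoplasmic reticulum (ER) found mainly in B lineage cells, marginal zone and B-1 cells among them, and in antibody-secreting cells. It acts as a co-chaperone of Hsp90b1 (also called Grp94 or gp96), the ER chaperone on which integrin chains and Toll-like receptors depend for folding, and it has been tied to calcium handling, antibody secretion and integrin activation. Pre-plasmablasts are an intermediate stage in which Blimp1 is already on and the plasma cell surface protein CD138 is not yet present.

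The libraries matched their sort. Prdm1 stood at 272 to 324 FPKM in ko and 233 to 268 FPKM in wt pre-plasmablasts, against 19.2 to 25.4 FPKM in the 4 ActB libraries. Sdc1, which encodes CD138, lay at 3.24 and 4.56 FPKM in ko and 4.91 and 5.24 FPKM in wt pre-plasmablasts, while the 4 PB libraries had 66.5 to 98.4 FPKM. Some markers of other cells, among them Cd3e and Cd8a (T cells), Lyz1, S100a8, S100a9 and Elane (myeloid cells), Clec9a, Cd209a and Clec10a (dendritic cells) and Hbb-b1 (red cells), were listed at 0 in all 4 libraries. A listed 0 can be a failed estimate, since Hmgcs1, a sterol synthesis enzyme of most cells, was also at 0 in all 4. Other markers were present: Cd3g lay at 2.60 to 3.80 FPKM in ko and 2.60 to 4.22 FPKM in wt, Lck at 7.31 to 7.91 FPKM in ko and 6.09 to 8.94 FPKM in wt, and Flt3 at 9.96 to 13.1 FPKM in ko and 9.48 to 11.1 FPKM in wt. The summed dendritic cell markers were 208 and 245 FPKM in ko and 263 and 217 FPKM in wt, most of it Bst2, at 193 and 233 FPKM in ko and 250.03 and 206 FPKM in wt. In total the 12 libraries held 418966 to 581262 FPKM, with 10180 to 10466 genes at 1 FPKM or more in each. The files carry no counts, so absolute depth is unknown and no counting interval can be given.

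Some libraries stood apart in ways the groups do not name. The wt replicate 1 libraries of all 3 populations differed from the other 9 in sex-linked transcripts: in pre-plasmablasts, Xist was at 0.233 and 0.0151 FPKM in ko, against 35.3 FPKM in wt replicate 1 and 0.0321 FPKM in wt replicate 2. The Y-linked Uty had 5.98 and 5.69 FPKM in ko. In wt it was listed at 0 in replicate 1 and had 5.67 FPKM in replicate 2. Wt replicate 1 thus had the pattern of female cells, and wt replicate 2 and both ko libraries that of male cells. Sex was therefore not balanced between ko and wt, and its part in the results was not tested. Low values in ko replicate 2 followed another quantification pattern than those of the other 3 pre-plasmablast libraries, and small RNA genes took 14.2% of its total, against 1.57% in ko replicate 1 and 2.61% to 4.97% in wt. By the sex-linked transcripts, the 2 wt libraries came from different animals. The labels do not say whether the ko replicates did, or whether replicates were separate cultures. P-values therefore measure only the spread between these samples. With 2 libraries against 2, an exact permutation test of a single value cannot go below 0.333, so tests come from 1 limma fit across all genes and all 12 libraries on log2(FPKM + 1). On this scale the fold change of low genes is understated. Each fold is given as a log2 change, ko minus wt, with its standard error (SE), and calls use a Benjamini-Hochberg adjusted p with a threshold of 0.05.

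The first check was the targeted gene. Mzb1 had 899 and 871 FPKM in ko pre-plasmablasts, against 10066 and 9926 FPKM in wt pre-plasmablasts. It fell in ko by 3.50 on the log2 scale (SE 0.13, limma adjusted p = 4.66e-07), and fragments equal to 8.85% of the wt mean were still assigned to the gene. The ko effect on Mzb1 was smaller in activated B cells, with a log2 change of -1.72, and was -4.08 in plasmablasts. The difference between pre-plasmablasts and activated B cells was itself called (-1.78, SE 0.18, limma adjusted p = 0.00697).

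The second question was which other genes differed between ko and wt pre-plasmablasts. Few genes did: limma called 13 of 11069 genes tested (0.117%), 11 higher in ko (0.0994%) and 2 lower (0.0181%). The 2 lower genes were Mzb1 and Coro2a, and the 11 higher genes were Atp9a, Itgam, A630023P12Rik, Tusc1, Sox4, Gh, Spns3, Cfp, Reep5, Plcb2 and Sbk1. At an unadjusted p below 0.05 there were 829 higher and 836 lower genes (7.49% and 7.55%), and the median log2 change of all genes was 0.0145. In each of the 13 genes both ko libraries lay on 1 side of both wt libraries, which was also true of 25.7% of all genes in the higher and 21.4% in the lower direction. Leaving out 1 of the 4 libraries at a time gave 7 or 8 calls. Without wt replicate 1 in all 3 populations there were 12, of which 5 were among the 13. In bulk RNA, fewer cells of a type and less RNA per cell cannot be told apart.

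**Figure D1:**
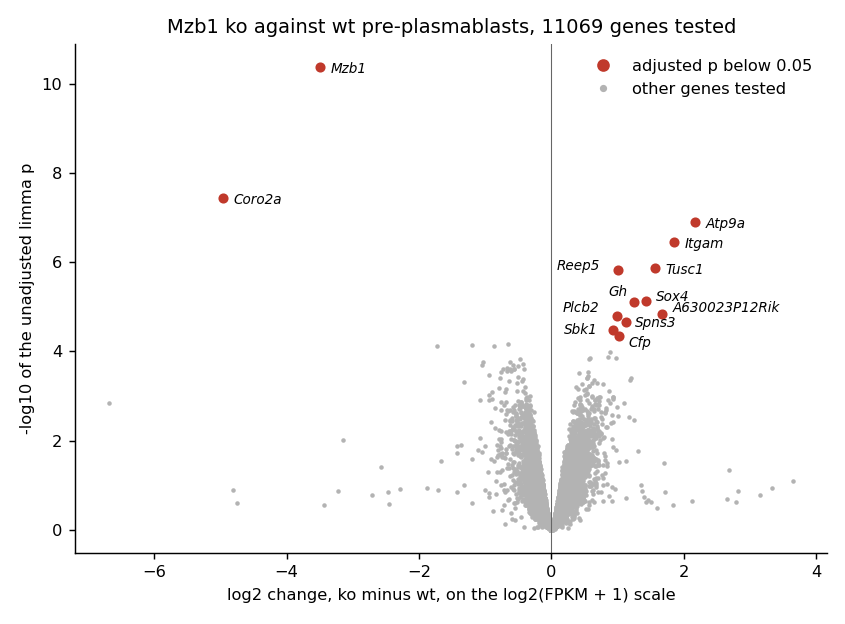
Each point is 1 of 11069 genes; the x axis is the log2 change in pre-plasmablasts, ko minus wt, and the y axis the -log10 of the unadjusted limma p. The 13 called genes are in red. Mzb1 and Coro2a lie to the left and have the lowest p, and the 11 higher genes lie between 0.93 and 2.17 on the x axis. Genes that were not called range from -6.68 to 3.65 on that axis.

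Coro2a had the largest change among the 13 called genes. It encodes a coronin, a WD-repeat protein that binds actin and is also a component of NCoR corepressor complexes. Its level was 1.11 and 0.720 FPKM in ko, against 44.1 and 77.5 FPKM in wt. The ko libraries lay near the filter of 1 FPKM while both wt libraries were far above it, although wt replicate 1 had 0.569 of the level of wt replicate 2. The log2 change was -4.96 (SE 0.35, limma adjusted p = 2.03e-04), and the call held under all 15 other settings tried. Coro2a was also called in activated B cells (-3.98) and plasmablasts (-4.74). None of the other coronin genes described here was called. Coro7 had 44.4 and 56.1 FPKM in ko and 30.3 and 36.9 FPKM in wt, without overlap (log2 change 0.56, unadjusted p = 0.00242, limma adjusted p = 0.14), and Coro1a had 434 and 512 FPKM in ko and 403 and 398 FPKM in wt (log2 change 0.24, limma adjusted p = 0.438). Coro1b was at 0.19 and Coro1c at -0.12. RefSeq places Gm16731 over the Coro2a locus, and whether the counting used strand is not given in the sources used here.

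Besides Mzb1, only Coro2a and Tusc1 were called in all 3 populations, and their promoters are shown for that reason. Each window holds 250 bases before and 50 bases after a start site, 5′ to 3′ on the minus strand, from RefSeq (GRCm38.p6). The chromosome of Mzb1, which also carries Reep5, was left out of the promoter search. Of the 13 called genes, 8 matched the remaining promoters. The capitals in the second Coro2a window mark a match, on the opposite strand, to AGNGAAAG, a motif of the kind Blimp1 binds, which begins 14 bases upstream of the start. The other windows hold none, and 8.63% of the 32851 promoters searched hold at least 1 match on either strand. Among the 12 promoters of the 8 matched genes, the one shown was the only match. The ER stress response element (in 0.119% of the promoters searched) and TGACGTG, a core element of the unfolded protein response (2.01%), were also examined. Both were searched on either strand and have 0 matches in these 12 windows.
Coro2a, first start, chr4:46601880-46602179: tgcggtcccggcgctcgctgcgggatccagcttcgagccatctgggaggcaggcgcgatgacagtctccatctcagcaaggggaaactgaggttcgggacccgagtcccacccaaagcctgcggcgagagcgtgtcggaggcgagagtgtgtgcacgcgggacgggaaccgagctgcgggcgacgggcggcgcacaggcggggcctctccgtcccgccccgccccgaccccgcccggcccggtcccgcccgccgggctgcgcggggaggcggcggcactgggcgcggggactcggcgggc
Coro2a, second start, chr4:46566391-46566690: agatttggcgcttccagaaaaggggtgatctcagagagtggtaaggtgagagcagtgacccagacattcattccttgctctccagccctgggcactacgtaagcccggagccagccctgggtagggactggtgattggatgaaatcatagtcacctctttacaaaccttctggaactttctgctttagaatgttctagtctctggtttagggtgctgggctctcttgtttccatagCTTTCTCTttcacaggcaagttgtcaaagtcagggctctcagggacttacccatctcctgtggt
Tusc1, chr4:93335462-93335761: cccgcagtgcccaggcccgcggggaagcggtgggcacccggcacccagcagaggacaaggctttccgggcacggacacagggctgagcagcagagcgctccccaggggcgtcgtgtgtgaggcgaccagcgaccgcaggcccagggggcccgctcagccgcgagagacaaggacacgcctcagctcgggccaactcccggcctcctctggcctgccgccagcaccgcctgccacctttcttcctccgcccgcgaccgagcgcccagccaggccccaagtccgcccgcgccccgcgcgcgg

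Among the genes that rose, Atp9a changed most on the log2(FPKM + 1) scale; with a pseudocount of 0.1 its log2 change was 2.52 and that of A630023P12Rik was 2.82. It encodes a member of the P4-ATPase family, whose flippases move lipids between membrane leaflets, and acts on endosomes. Atp9a had 13.96 and 15.3 FPKM in ko, against 2.74 and 2.23 FPKM in wt. Both ko libraries were far above both wt libraries, and the gene rose by 2.17 on the log2 scale (SE 0.17, limma adjusted p = 4.72e-04). With the pseudocount of 0.1 the adjusted p was 0.0907. In activated B cells all 4 libraries were below 1 FPKM, and in plasmablasts Atp9a had 23.2 and 25.2 FPKM in ko against 3.43 and 3.33 FPKM in wt. The ko effect was 1.89 larger in pre-plasmablasts than in activated B cells (SE 0.25, limma adjusted p = 0.0465). In activated B cells Atp9a had 0.137 and 0.673 FPKM in ko and 0.0788 and 0.202 FPKM in wt. At such levels the log2(FPKM + 1) scale understates a fold change, and the part of the scale in this difference was not tested. Atp9a was the 1 called gene of 17 tested flippase and lipid transport genes. Tmem30a, the subunit that most P4-ATPases need, had 48.5 and 48.2 FPKM in ko and 48.5 and 48.1 FPKM in wt.

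Itgam encodes the integrin alpha M chain (CD11b), which pairs with the beta 2 chain Itgb2 to form Mac-1. It had 14.3 and 12.1 FPKM in ko, against 3.44 and 2.46 FPKM in wt, with no overlap. Itgam rose by 1.85 on the log2 scale (SE 0.17, limma adjusted p = 9.94e-04). In the fit on the 4 pre-plasmablast libraries alone its adjusted p was 0.051. Its level was highest in activated B cells and lowest in plasmablasts in both genotypes: 98.0 and 122 FPKM in ko and 78.7 and 77.4 FPKM in wt activated B cells, and 1.67 and 1.06 FPKM in ko and 0.152 and 0.197 FPKM in wt plasmablasts. The ko effect was 0.48 in activated B cells, where it was not called, and 1.00 in plasmablasts, where it was. Because Itgam is also a myeloid marker, the other markers of that list are given beside it. Of 15 myeloid markers in the files, 4 were tested, Itgam among them. All 4 had a positive change (median 0.708), 2 of them at an unadjusted p below 0.05, and Itgam alone was called. Besides Itgam, the changes were 0.38 for Cd68, 0.64 for Adgre1 and 0.78 for Lyz2, with only Cd68 at that p. Of all genes tested, 7.49% were higher at that p and 0.117% were called. The summed level of the list was 36.5 and 35.3 FPKM in ko and 21.5 and 16.6 FPKM in wt, of which Itgam and Cd68 made up most. Cd68 had 17.6 and 21.95 FPKM in ko and 16.8 and 13.2 FPKM in wt (limma adjusted p = 0.293), and Adgre1 (F4/80) had 1.58 and 0.963 FPKM in ko and 0.279 and 0.633 FPKM in wt (limma adjusted p = 0.423). Lyz2 had 2.74 and 0.109 FPKM in ko and 0.246 and 0.132 FPKM in wt, and Csf1r was at most 0.0309 FPKM in every pre-plasmablast library. Their part in the Itgam result was not tested.

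Tusc1, named as a tumour suppressor candidate, had 7.71 and 9.86 FPKM in ko, against 2.09 and 2.52 FPKM in wt. The groups did not overlap, and the gene rose by 1.56 (SE 0.16, limma adjusted p = 0.00275). The log2 change was 1.33 in activated B cells and 1.28 in plasmablasts, called in both. Without wt replicate 1 in all 3 populations its change in pre-plasmablasts was 1.46 and was no longer called (limma adjusted p = 0.154).

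Reep5 encodes a membrane protein that shapes ER tubules. It had 206 and 204 FPKM in ko, against 106 and 97.4 FPKM in wt, the highest level among the genes that rose. The rise was 1.00 on the log2 scale (SE 0.10, limma adjusted p = 0.00275). It was 0.66 in activated B cells and 1.00 in plasmablasts, where it was called. Without wt replicate 2 of the pre-plasmablasts the adjusted p was 0.0511.

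**Figure D2:**
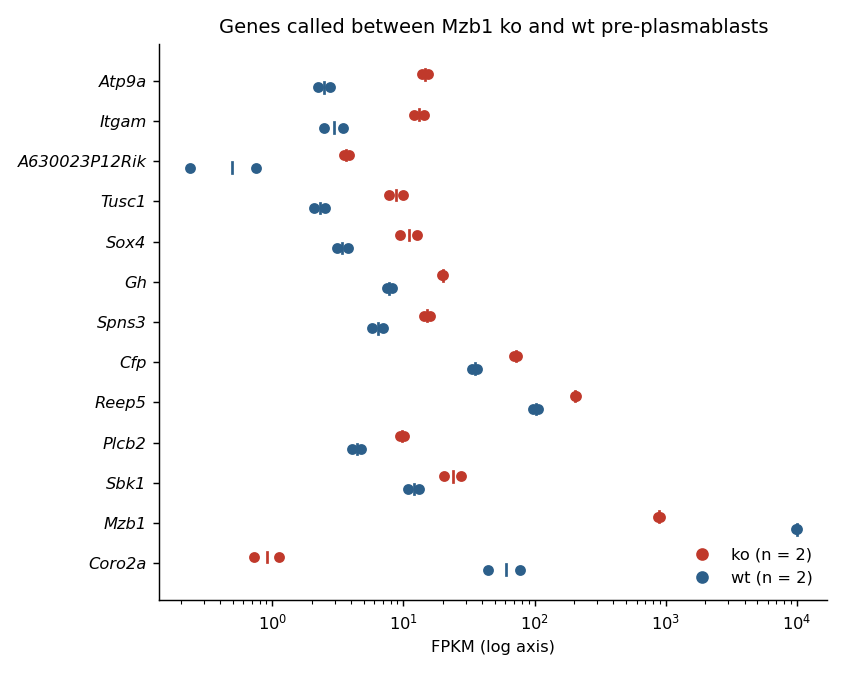
FPKM of the 13 called genes in each pre-plasmablast library, on a log axis; red points are the 2 ko libraries, blue points the 2 wt libraries, and vertical ticks the group means. No gene has overlapping groups; Coro2a and Mzb1 are lower in ko, and Atp9a and Itgam show the widest gaps upward after A630023P12Rik, which was below 1 FPKM in wt.

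The other called genes had smaller or less stable changes. Sox4, a transcription factor that early B cell development depends on, had 12.6 and 9.43 FPKM in ko, against 3.09 and 3.75 FPKM in wt, and rose by 1.44 (SE 0.18, limma adjusted p = 0.0108). Gh, the growth hormone gene, had 19.8 and 20.1 FPKM in ko, against 7.47 and 8.16 FPKM in wt, and rose by 1.25 (SE 0.15, limma adjusted p = 0.0108). Gh lies directly beside the B cell receptor gene Cd79b in RefSeq, and Cd79b had 1117 and 1168 FPKM in ko and 1010 and 1003 FPKM in wt (log2 change 0.18, limma adjusted p = 0.574). A630023P12Rik had 3.50 and 3.84 FPKM in ko and 0.234 and 0.754 FPKM in wt, and rose by 1.67 (limma adjusted p = 0.0177). It was tested in 14 of the 15 other settings.

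Plcb2, a phospholipase C that acts downstream of G protein-coupled receptors, had 10.1 and 9.33 FPKM in ko, against 4.08 and 4.75 FPKM in wt (log2 change 0.99, limma adjusted p = 0.0177). Spns3, of the spinster transporter family, had 15.9 and 14.2 FPKM in ko, against 5.76 and 6.99 FPKM in wt (1.13, limma adjusted p = 0.0221). Sbk1, a protein kinase gene, had 20.3 and 27.3 FPKM in ko, against 13.1 and 10.8 FPKM in wt (0.93, limma adjusted p = 0.0306). In all 3 genes both ko libraries were above both wt libraries. Cfp encodes properdin, which stabilises the convertase of the alternative complement pathway. It had 74.1 and 70.0 FPKM in ko, against 33.3 and 36.5 FPKM in wt, and rose by 1.02 (SE 0.15, limma adjusted p = 0.0391), the weakest call. Of 15 other settings, 4 to 8 called each of these 7 genes, and each lost its call without wt replicate 1 of the pre-plasmablasts.

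Just outside the threshold, 4 lower genes came first, and none of the genes that follow was called. Bcl2l15, of the Bcl2 family, had 4.19 and 4.09 FPKM in ko and 7.31 and 6.94 FPKM in wt (log2 change -0.66, limma adjusted p = 0.05004). Hist1h2bb, an H2B histone gene with near-identical copies, Ttc39c and Tma16 had log2 changes of -1.21, -1.72 and -0.86 at the same adjusted p. The next 4 by p were higher in ko, and were not part of the rule for naming: Rgs16, a regulator of G protein signalling (0.88, limma adjusted p = 0.0637), Plk3 (0.85), Pde2a (0.98) and Bcl2l12 (0.58, each with a limma adjusted p of 0.0724). Snrpa1, a U2 splicing particle protein, had 52.4 and 51.5 FPKM in ko and 74.1 and 71.0 FPKM in wt (-0.47, limma adjusted p = 0.0724). Shmt1, the cytosolic serine hydroxymethyltransferase, was at -0.63, the nucleolar protein gene Rsl1d1 at -0.43, and Synj2bp-cox16, which overlaps Cox16 and Synj2bp and may share their fragments, at -1.03.

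How the 13 genes behaved in the neighbouring populations was compared next. In plasmablasts 45 genes were called (0.407%), and 9 of these 45 were among the 13. The quantification pattern coincides with genotype in plasmablasts, and their 45 calls became 4 with a term for it and 9 without wt replicate 1 everywhere. In activated B cells 6 were called (0.0542%), and 3 of the 6 were among the 13. Sox4, Gh, A630023P12Rik and Plcb2 were called in pre-plasmablasts and in neither other population. That does not show a different effect: the largest of their 4 differences between pre-plasmablasts and plasmablasts was that of A630023P12Rik (1.81, limma adjusted p = 0.787), and none of the 4 passed the test of the difference. Against plasmablasts, limma called 0 of 11069 differences in the ko effect, with 272 at an unadjusted p below 0.05. Against activated B cells it called 4 (0.0361%): Mzb1, Atp9a, Cdkn2a and the small nucleolar RNA gene Snora28. The populations share no libraries; whether libraries of different populations came from the same animals is not given.

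**Figure D3:**
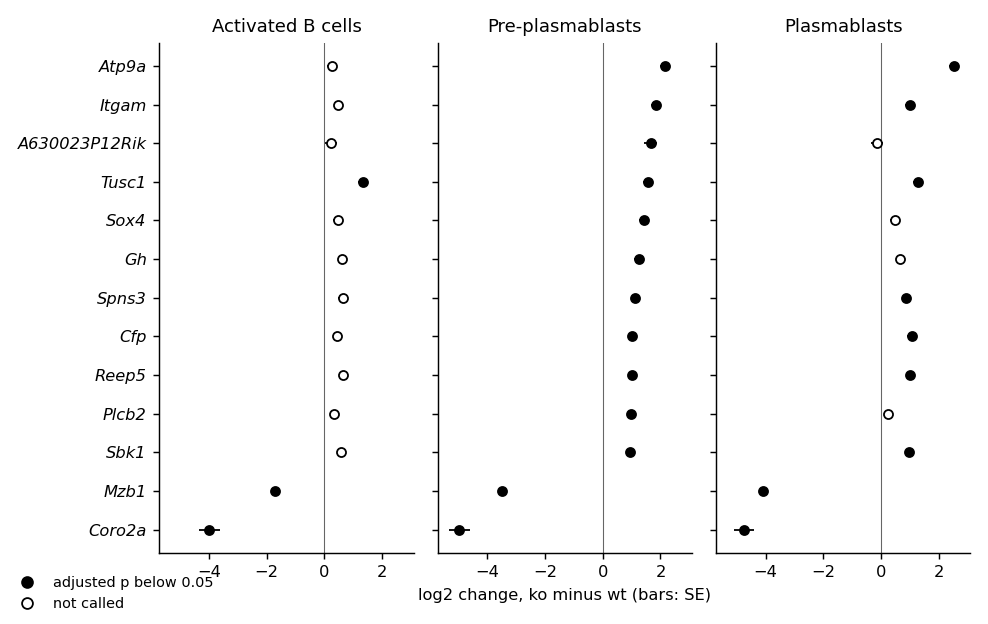
Log2 change, ko minus wt, of the 13 genes called in pre-plasmablasts, in activated B cells, pre-plasmablasts and plasmablasts from left to right; bars are the SE, and filled points have an adjusted p below 0.05. Mzb1, Coro2a and Tusc1 are filled in all 3 panels. Atp9a is at 0.28 in activated B cells, where its levels were below 1 FPKM, and above 2 in the other panels.

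Cdkn2a, the gene of the cell cycle inhibitors Ink4a and Arf, had 52.4 and 70.6 FPKM in ko pre-plasmablasts, against 120 and 93.3 FPKM in wt (log2 change -0.79, limma adjusted p = 0.116). In activated B cells it had 49.3 and 47.5 FPKM in ko and 23.7 and 25.3 FPKM in wt (0.95, limma adjusted p = 0.16). Neither change was called alone, and the difference between them was (-1.75, SE 0.23, limma adjusted p = 0.0466). In plasmablasts Cdkn2a had 80.6 and 103 FPKM in ko and 206 and 177 FPKM in wt. There the fall was called (log2 change -1.055, limma adjusted p = 0.0292), within the limits on plasmablast calls given above. Cdkn1b, the inhibitor p27, had 35.9 and 38.9 FPKM in ko and 24.2 and 27.1 FPKM in wt (0.53, limma adjusted p = 0.117).

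Integrins and the ER machinery were examined because Mzb1 works with Hsp90b1. Of all genes, 0.117% were called, and 7.49% were higher and 7.55% lower at an unadjusted p below 0.05. Of 32 integrin and adhesion genes, 25 were tested, and 1 was called (Itgam). At an unadjusted p below 0.05, 3 were higher and 3 lower, and the list's median log2 change was 0.0021. Itgb2, the partner of Itgam, had 155 and 170 FPKM in ko and 134 and 154 FPKM in wt (0.17, limma adjusted p = 0.572). Itgb1, the beta 1 chain, had 29.3 and 33.2 FPKM in ko and 34.4 and 35.9 FPKM in wt (-0.17, SE 0.11, limma adjusted p = 0.505). Itga4, Itgal and Itgb7 had log2 changes of -0.33, -0.07 and 0.29 and were not called. Of 24 integrin activation genes tested 0 were called, with 4 higher and 1 lower at an unadjusted p below 0.05. Fermt3, the kindlin of blood cells, had 134 and 138 FPKM in ko and 102 and 112 FPKM in wt (0.35, limma adjusted p = 0.158), and Sipa1, a Rap1 inhibitor, was at 0.30.

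Hsp90b1 itself had 4476 and 3990 FPKM in ko and 4380 and 4490 FPKM in wt (log2 change -0.07, SE 0.13, limma adjusted p = 0.84). Hspa5 (BiP) had 2795 and 2427 FPKM in ko and 2350 and 2451 FPKM in wt (0.12, SE 0.12, limma adjusted p = 0.667). The groups overlapped for both. Of 33 ER chaperone genes tested 0 were called, 1 was higher and 3 were lower at an unadjusted p below 0.05, and the median was -0.0236; Fkbp2 and Canx (calnexin) were at -0.37 and -0.26. Of 20 tested clients of Hsp90b1, Itgam was the 1 called. Of all genes 0.117% were called, so 0 calls in lists of this size say little. At an unadjusted p below 0.05, 7.49% of all genes were higher and 7.55% lower. No gene was called among 23 of ER-associated degradation, 30 of the unfolded protein response, 48 of the translocon and vesicle coats or 37 of N-glycosylation. At an unadjusted p below 0.05, degradation genes had 4 higher and 1 lower, the unfolded protein response 1 higher and 5 lower, the translocon and coat genes 0 higher and 7 lower, and N-glycosylation 1 of each. Derl3, a derlin of the degradation channel, had 554 and 469 FPKM in ko and 347 and 349 FPKM in wt (0.55, limma adjusted p = 0.0938), and Herpud1 was at 0.39. The other low-p members were the tRNA synthetase Gars (-0.33), the serine synthesis enzyme Psat1 (-0.31), the translocon subunits Sec61g (-0.53) and Sec61b (-0.32), the oligosaccharyltransferase subunit Tusc3 (-0.41) and Alg12 (0.35).

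Plasma cell regulators and B cell identity genes differed in the sign of their medians. Of all genes tested, 0.117% were called, and 7.49% were higher and 7.55% lower at an unadjusted p below 0.05. Of all changes, 5880 were positive and 5174 negative. Of 28 plasma cell regulators 1 was called, Mzb1 itself, and 2 were higher and 9 lower at that p. Of the 28 changes, 20 were negative (median -0.217). The targeted gene Mzb1 is itself among the 9 and the 20. The 9 became 4 without wt replicate 2 and 4 without ko replicate 1 of the pre-plasmablasts. Xbp1, which switches on the genes for secretion, had 1394 and 1317 FPKM in ko and 1579 and 1568 FPKM in wt (-0.22, limma adjusted p = 0.32). Eaf2 and Ell2, partners in transcription elongation, were at -0.38 and -0.22. Prdm1 was at 0.25 (limma adjusted p = 0.418) and Sdc1 at -0.32 (limma adjusted p = 0.453); differences in both are bounded by the sort. Of 35 B cell identity genes 0 were called, 10 were higher and 1 lower at an unadjusted p below 0.05, and 28 of 35 changes were positive (median 0.241). The 10 became 6 without wt replicate 1 and 6 without ko replicate 2. Cd72, an inhibitory co-receptor, had 44.3 and 57.7 FPKM in ko and 34.5 and 30.0 FPKM in wt (0.64, limma adjusted p = 0.0988). Pax5, the factor that maintains B cell identity, had 17.0 and 20.2 FPKM in ko and 13.6 and 13.8 FPKM in wt (0.41, limma adjusted p = 0.181), and the follicular homing receptor Cxcr5 was at 0.44. The summed B lineage markers were 13232 and 13701 FPKM in ko and 11703 and 11885 FPKM in wt, and the summed plasma cell lineage markers 9014 and 8935 FPKM in ko and 11167 and 12112 FPKM in wt. Most of the first sum was Cd74, at 9337 and 9961 FPKM in ko and 8635 and 8706 FPKM in wt, and most of the second was Jchain, at 6670 and 6785 FPKM in ko and 8738 and 9629 FPKM in wt (limma adjusted p = 0.741 and 0.578). Their part in the called genes was not tested. In plasmablasts, where 0.262% of all genes were called higher, 5 of the same 35 identity genes were: Blk, Cd72, Cxcr5, Pax5 and Spib. The limits on the plasmablast calls given above hold for these as well.

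**Figure D4:**
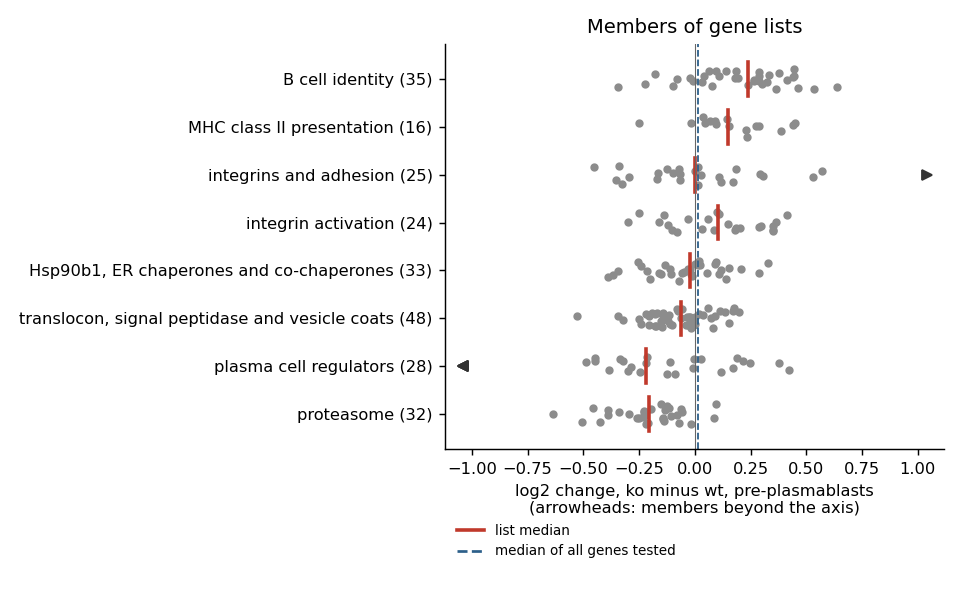
Each grey point is a tested member of 1 of 8 gene lists (number tested in brackets), placed by its log2 change in pre-plasmablasts, ko minus wt; red ticks are list medians, the dashed line is the median of all genes tested (0.0145), and arrowheads mark members beyond the axis. The B cell identity median is 0.241, and the medians of plasma cell regulators and proteasome genes are -0.217 and -0.205.

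Of 32 proteasome genes 0 were called, 13 were lower and 0 higher at an unadjusted p below 0.05, and 30 of 32 changes were negative (median -0.205). Over all genes tested, 0.117% were called, and 7.55% were lower and 7.49% higher at that p. Of all changes, 5174 were negative and 5880 positive. Psme1, a subunit of the PA28 activator, had 115 and 129 FPKM in ko and 176 and 146 FPKM in wt (-0.39, limma adjusted p = 0.159), and the core subunit Psma4 was at -0.34. Without wt replicate 1 of the pre-plasmablasts the median was -0.0971 and 2 were lower at an unadjusted p below 0.05, so the count depends on that library.

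Signalling and trafficking lists are given beside the shares of all genes. These were 0.117% called, and 7.49% higher and 7.55% lower at an unadjusted p below 0.05. Of 35 B cell receptor and calcium genes 0 were called, with 8 higher and 2 lower at an unadjusted p below 0.05. Pik3cg, a PI3-kinase catalytic subunit, had 58.2 and 64.3 FPKM in ko and 91.7 and 109 FPKM in wt (-0.70, limma adjusted p = 0.125), and Pik3cd was at 0.33. Of 21 genes of Toll-like receptors and LPS recognition 0 were called, with 2 higher (Tlr9 and Irak2) and 0 lower at that p. Tlr4, the LPS receptor and a client of Hsp90b1, had 2.47 and 3.24 FPKM in ko and 3.27 and 2.46 FPKM in wt. Of 16 class II presentation genes 0 were called, 3 were higher and 0 lower at that p, and 14 changes were positive (median 0.148), with Rfxank at 0.44 and Rfx5 at 0.39. Of 28 NF-kappaB genes 0 were called, 3 were higher and 2 lower at that p, with the cytokine gene Ltb at 0.75 and Ebi3 at -0.58. Sox4 was the 1 called gene of 22 tested marginal zone, follicular and B-1 markers, and Coro2a the 1 of 49 actin and migration genes.

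The genes around Mzb1 were examined because alleles that flank a targeted gene travel with it. Within 50 genes on each side in the RefSeq order, 47 were tested and 1 was called, Reep5, which lies 46 genes away. At an unadjusted p below 0.05 there were 12 of 47 (25.5%), against 15.0% of all genes. Prob1, directly beside Mzb1, had 7.29 and 4.82 FPKM in ko and 1.60 and 2.54 FPKM in wt (log2 change 1.19, SE 0.23, limma adjusted p = 0.0938). Pkd2l2, next to Reep5, was at 0.68 and Cdc23, a subunit of the anaphase-promoting complex, at 0.56, while Ctnna1, the alpha-catenin gene, was at -0.43. For these genes and Reep5, the loss of Mzb1 and the alleles flanking it cannot be told apart.

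**Figure D5:**
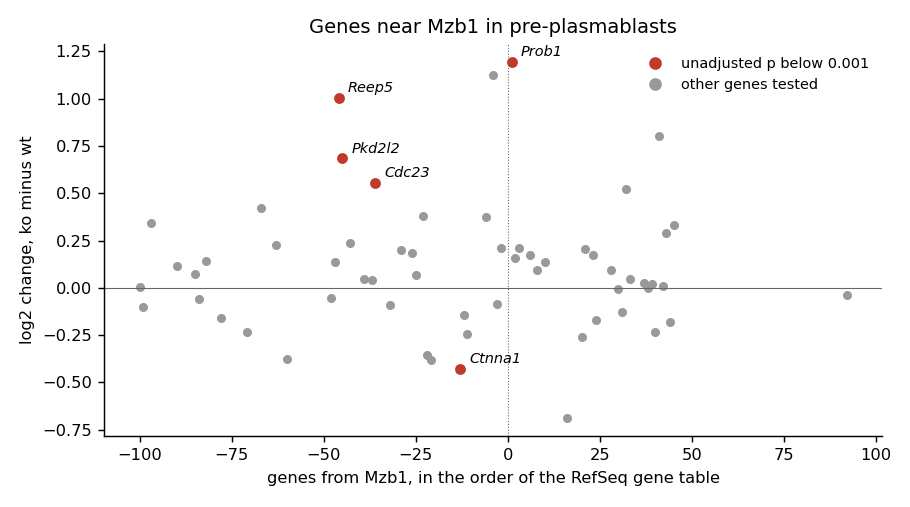
Log2 change, ko minus wt, in pre-plasmablasts of genes tested within 100 genes of Mzb1, placed by their order in the RefSeq gene table; red points have an unadjusted p below 0.001. Prob1 lies directly beside Mzb1 at 1.19, and Reep5, 46 genes away, at 1.00.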

How the data were processed

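The authors deposited FPKM values, fragment numbers normalised for transcript length and library size, with 24325 gene symbols in each library's file. Per the submitters' processing notes, the tools were Cuffnorm 2.2.1, Cuffdiff, Cufflinks 2.2.1, TopHat2 2.0.14 and bcl2fastq in versions 2.17.1.14 and 0.3.1, with the mm9 genome; the annotation, the library scaling and strand use are not given in the sources used here. No constant-region immunoglobulin gene is listed (0), so antibody transcripts were not analysed here. Since FPKM values are no counts, no count test was run.

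The 11069 genes that reached 1 FPKM in 2 or more of the 12 libraries were tested as log2(FPKM + 1) with limma 3.58.1 in R 4.3.3 (limma-trend, statmod 1.5.0), with 1 coefficient for each of 6 groups, 6 residual and 4.49 prior degrees of freedom. Tests were two-sided, with Benjamini-Hochberg adjustment over all genes tested. Lists (35, with 841 symbols, 831 in the files and 747 tested) are described by counts and medians. Members and lists were chosen with earlier results of these data known.

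Named were a fixed set (Mzb1, Prdm1, Xbp1, Sdc1, Itgb1, Itgb2, Itga4, Itgal, Itgb7, Hsp90b1, Hspa5, Coro2a, Tusc1), up to 20 called genes each way whose groups did not overlap and averaged 1 FPKM or more on the higher side (or, with fewer than 10, the next by p), called list members or else the 2 with the lowest p, and called interactions. Pax5, Cd68, Lyz2, Csf1r, Eaf2 and Ell2 are named as cell markers. The other coronins, Rgs16, Plk3, Pde2a, Bcl2l12, the expressed markers of other cells, Tmem30a, Tlr4, Cd79b and the genes beside Mzb1 were chosen after their values were seen. Promoters and gene order come from RefSeq (GRCm38), not the build of the files. Alternatives were filters, pseudocount, scaling, the 4 libraries alone, a replicate block, a correlation within replicate number, a minimum change, a fragment pattern term and left-out libraries. Replicate differences of ko and wt correlated at -0.0822 in pre-plasmablasts across genes, so replicate numbers were not taken as pairs. Quantification patterns were read from the most frequent ratio between pairs of libraries (log2 tolerance 0.002) in genes under 0.5 FPKM. Python 3.11.15 with pandas 2.3.3 and matplotlib 3.10.9 drew the figures.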

Additional observations from a re-analysis of the deposited data

Results flagged for a closer look

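In 4 genes the test of the difference between the ko effect in pre-plasmablasts and that in activated B cells passed the threshold, which is what singles them out; 395 genes had an unadjusted p below 0.05 in that test. Snora28 had the largest difference (5.69, SE 0.40, limma adjusted p = 4.17e-04), which comes from activated B cells alone: it was listed at 0 in both ko and at 76.2 and 33.5 FPKM in both wt activated B cell libraries, and at 0 in all pre-plasmablast libraries. A listed 0 for so short a gene can be a failed estimate. For Mzb1 the difference was -1.78 (SE 0.18, limma adjusted p = 0.00697), with wt levels of 10066 and 9926 FPKM in pre-plasmablasts and 845 and 1016 FPKM in activated B cells. Atp9a differed by 1.89 (SE 0.25, limma adjusted p = 0.0465) and was below 1 FPKM in all 4 activated B cell libraries. There the log2(FPKM + 1) scale understates a fold change. Cdkn2a differed by -1.75 (SE 0.23, limma adjusted p = 0.0466), with ko below wt in pre-plasmablasts and above wt in activated B cells. Leaving out 1 library at a time, 1 to 4 such differences were called.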

How the results depend on the processing

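No named gene changed direction under any setting, 1 list median did, and the cause of the changes below was not tested. The 13 calls in pre-plasmablasts became 20 with quantile normalization (12 higher, 8 lower), 24 with equal totals (19 higher, 5 lower), 8 in the fit on the 4 pre-plasmablast libraries, 2 with a minimum log2 change of 1 and 7 to 8 with 1 library left out. Without a filter there were again 13, of which 6 were shared; with the replicate block 14 (7 higher, 7 lower), of which 8 were shared; and without wt replicate 1 everywhere 12, of which 5 were shared. Mzb1 and Coro2a were called under all 15 settings, Atp9a, Itgam and Reep5 under 13 and Tusc1 under 12. List members called, 5 in all, became 3 in the 4-library fit and 2 with the minimum change. In activated B cells 6 calls became 10 without a filter, 2 with the minimum change, 14 without wt replicate 1 everywhere and 3 to 7 with 1 library left out. In plasmablasts 45 calls became 27 without a filter, 72 with equal totals, 3 with the minimum change, 4 with the fragment pattern term, 9 without wt replicate 1 everywhere and 10 to 45 with 1 library left out; the pattern coincides with genotype there. The 4 differences against activated B cells became 2 with a pseudocount of 0.1, 1 with the minimum change and 1 to 4 with 1 library left out; the 0 against plasmablasts became 4 without a filter, 1 with the pattern term and 0 to 1. Equal totals moved the median of all genes to 0.0929, against 0.0145. With it and with quantile normalization, the median of the translocon list turned positive (0.029 and 0.0222, against -0.061). A group left with 1 library was assumed to vary like the others. Depth is unknown, so genes near 1 FPKM are the least certain.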

Other observations

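Cytosolic ribosomal protein genes, chosen after their values were seen, mostly had lower values in ko pre-plasmablasts. Of 80 listed, 75 were tested and 0 were called. At an unadjusted p below 0.05, 36 were lower and 0 higher, and 70 of 75 changes were negative (median log2 change -0.354). Over all genes tested, 0.117% were called, and 7.55% were lower and 7.49% higher at that p. Of all changes, 5174 were negative and 5880 positive. The median of the ribosomal list ran from -0.48 to -0.267 over the other settings. The 36 became 8 without wt replicate 1, 20 without ko replicate 1 and 19 without ko replicate 2 of the pre-plasmablasts. The median was -0.074 in activated B cells and -0.438 in plasmablasts. Rps2 had 194 and 230 FPKM in ko and 361 and 298 FPKM in wt (-0.63, limma adjusted p = 0.0999). The nucleolar proteins Npm1 and Ncl were at -0.74 and -0.58 (limma adjusted p = 0.0807 each), and Npm1 had 65.1 and 58.4 FPKM in ko and 117 and 91.4 FPKM in wt. The mitochondrial chaperone Hspd1 had 29.3 and 30.7 FPKM in ko and 50.5 and 43.8 FPKM in wt (-0.63, limma adjusted p = 0.0807).

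Pde2a, a phosphodiesterase that breaks down cyclic nucleotides, had 40.5 and 42.3 FPKM in ko and 19.8 and 21.3 FPKM in wt (0.98, limma adjusted p = 0.0724). Isg15, an interferon-induced ubiquitin-like protein, had 71.5 and 76.8 FPKM in ko and 106.0 and 105.7 FPKM in wt (-0.51, limma adjusted p = 0.0938). Both were among the 78 genes with an unadjusted p below 0.001.

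The remaining lists held 0 called genes in limma, where 0.117% of all genes were called. Over all genes, 7.49% were higher and 7.55% lower at an unadjusted p below 0.05. At an unadjusted p below 0.05, cell cycle genes had 2 higher and 6 lower of 38, apoptosis and p53 genes 3 higher and 4 lower of 28, interferon response genes 4 higher and 5 lower of 31, and immediate early and heat shock genes 1 higher and 4 lower of 31. Glycolysis genes had 2 higher and 4 lower of 22, with Tpi1 at -0.41 and Ldha at -0.52, sterol and fatty acid synthesis genes 1 of each of 27, and class switch genes 2 higher and 5 lower of 25, with Apex1, a base excision repair enzyme, at -0.54. Homing receptors had 1 of each of 17, and BAFF, APRIL and cytokine receptors 3 of each of 31, with the interleukin 21 receptor gene Il21r at 0.32. The summed T cell markers were 16.1 and 16.6 FPKM in ko and 17.3 and 11.99 FPKM in wt, and the summed natural killer cell markers 3.33 and 2.82 FPKM in ko and 1.99 and 3.06 FPKM in wt.

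Chromosome 4 carries Coro2a and Tusc1. By RefSeq location, 5.81% of its 688 tested genes had a p below 0.005, against 2.97% of all 11030 matched genes. Mtap, which lies on it, had 12.95 and 13.5 FPKM in ko and 25.2 and 18.7 FPKM in wt (-0.68, limma adjusted p = 0.0807). The chromosome that carries Mzb1 had 6.02% of 266 genes below that p. At p below 0.05, the shares were 21.4% on chromosome 4, 16.9% on the chromosome of Mzb1 and 15.0% of all matched genes. Chromosome 15, with 440 genes tested and 0 called, had 20.2% at that p and 2.95% at p below 0.005. Whether Coro2a and Tusc1 changed with the loss of Mzb1 or with other alleles that differed between the groups was not tested.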
